A study of Mus musculus with 85 samples.

Results

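Aminoacyl-tRNA synthetases are the enzymes that join each amino acid to its transfer RNA, and the mRNA levels of their genes were measured here through mouse preimplantation development. Members were taken by gene symbol, as the letter of an amino acid followed by ARS, with a final 2 for the mitochondrial enzymes, together with Eprs, Farsa and Farsb. The rule found 37 of the 37368 gene rows of the expression table, of which 20 encode cytosolic enzymes and 17 mitochondrial ones. Levels are in CPM, which sets each gene's reads against all reads of its library, so a value is a share of a library's mRNA reads and not an amount per embryo.

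A synthetase first activates its amino acid with ATP and then transfers it to the matching tRNA, so these enzymes set the accuracy with which the genetic code is read. Mitochondria translate their own small set of mRNAs and use separate, nuclear-encoded synthetases that are imported, most of them from genes ending in 2. Mammalian Gars and Kars serve both compartments from a shared gene each. Mitochondrial glutamine tRNA is charged by a detour through glutamate that needs the amidotransferase subunits Qrsl1, Gatb and Gatc. Eprs joins glutamate and proline activities in the same protein. Several cytosolic enzymes sit in the multi-synthetase complex, here counted as Dars, Eprs, Iars, Kars, Lars, Mars, Qars and Rars, while the other 12 cytosolic members are counted as free. Phenylalanine is charged in the cytosol by an enzyme of catalytic alpha subunits from Farsa and beta subunits from Farsb, and in mitochondria by the monomer Fars2. ATF4, the transcription factor of the integrated stress response, is known to induce many cytosolic synthetase genes in mammalian cells. MYC is known to bind many genes of protein synthesis through the E-box CACGTG.

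The 85 libraries were made from whole preimplantation embryos of wild-type B6C3F1/J mice by Smart-seq2, an oligo-dT primed full-length cDNA method. They fall into 21 groups named by medium, stage and hours after hCG, the hormone that triggers ovulation. Medium without pyruvate was used for 2-cell embryos at 42 h (n = 4), 48 h (n = 5), 52 h (n = 4) and 55 h (n = 4), morulae at 78 h (n = 5) and blastocysts at 114 h (n = 5). Morulae were also grown without pyruvate in the presence of 20 nM KY-PYR-9 (n = 4), which the labels call a Myc inhibitor. Medium without lactate was used for morulae at 78 h (n = 5) and blastocysts at 114 h (n = 4). The standard medium was KSOM with L-lactate at 5 mM and glucose and pyruvate at 0.2 mM each. Its 12 groups were early 2-cell at 34 h (n = 3), mid 2-cell at 42 h (n = 4), late 2-cell at 48 h (n = 3), very late 2-cell at 52 h (n = 3), early 4-cell at 55 h (n = 4), late 4-cell at 62 h (n = 4), early 8-cell at 66 h (n = 3), late 8-cell at 74 h (n = 2), morula at 78 h (n = 6), early 16-cell at 80 h (n = 5), early 32-cell at 90 h (n = 4) and blastocyst at 114 h (n = 4). The inhibitor was given in medium without pyruvate and is set against that medium alone; the labels name no vehicle. All groups were embryos in culture. The labels do not say how many embryos went into a library or whether replicate libraries came from separate animals. P-values therefore measure the spread between these libraries, which may be technical.

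Libraries held 10.2 to 42.6 M reads, inferred from the size of the steps between low values, and 11334 to 17418 genes lay above 1 CPM. The oocyte and maternal marker list (8 genes) summed to 21117 to 25371 CPM in early 2-cell embryos and to 4.16 to 15.6 CPM in blastocysts. The trophectoderm list (6 genes) summed to 7.70 to 16.7 CPM in early 4-cell embryos and 12895 to 17663 CPM in blastocysts. Standard morula libraries 1 and 2 stood apart from the other 4: their 20 most abundant genes took 20.2% and 14.5% of reads, and Yars was 65.5 and 108 CPM there against 259, 262, 242 and 257 CPM in libraries 3 to 6. Because these are bulk samples, fewer cells of a type and less RNA per cell cannot be told apart. All tests were limma fits on log2(CPM + 1) across every gene that passed a filter of more than 1 CPM in at least 3 libraries, with p-values adjusted by the Benjamini-Hochberg method over all those genes. All 37 members passed this filter in each of the 5 fits, and a difference on this scale understates the change of low genes.

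The share of reads can shift for most genes at once when the rest of the transcriptome changes, so each comparison was repeated under 3 other scalings: by median ratio, by quantiles, and after removing a trend with transcript length. Members whose call had the same direction and passed at an adjusted p of 0.05 in all 4 versions are said below to hold under every scaling. Counts over other gene lists, such as translation factors, ATF4 target genes and markers, were made on CPM values only. In the GENCODE vM21 annotation of GRCm38, the members described most often lie at chr1:78417975-78488897 (Farsb, minus strand), chr8:84856989-84869257 (Farsa, plus strand), chr8:111033144-111057664 (Aars, plus strand), chr3:99141068-99239186 (Wars2, plus strand), chr9:108507706-108515941 (Qars, plus strand) and chr11:35808381-35834506 (Rars, minus strand). Some counts are uncertain because exons overlap a neighbour: Aars shares 1326 exonic bases with Exosc6, Iars2 shares 2034 with Rab3gap2, Fars2 shares 501 with Nrn1, Vars2 shares 465 with Gm20483, Cars2 shares 422 with Naxd, Farsb shares 248 with Sgpp2, Hars shares 195 with Hars2, and Mars shares 68 with Ddit3. Values that amount to 200 reads or fewer were a whole number of reads within 0.1 in only 3 of 19 libraries for Hars2, 1 of 6 for Lars2, 7 of 32 for Cars2, 4 of 18 for Hars, 14 of 56 for Iars2 and 8 of 21 for Mars, so the levels of these genes are uncertain. Aars2 and Vars2 averaged under 4 CPM in every group.

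Promoters, taken as 250 bases before to 50 bases after the gene start in the RefSeq table for GRCm38.p6, were found for 26 of the 37 members. The ATF4 composite element TGATGNAA, searched on both strands, lay in 5 of these 26 promoters (19.2%), those of Aars, Gars, Iars, Tars and Yars, against 3.97% of all 32851 promoters in the table. The E-box CACGTG, which reads the same on both strands, lay in 5 of 26 (19.2%), those of Aars, Ears2, Farsb, Iars and Tars, against 7.15% of all promoters. Both are matches of letters in a window and no binding was measured. The sequences of 5 cytosolic members that the results turn on are shown 5′ to 3′ along the gene with each match in capitals: Aars, Gars and Iars for the ATF4 element, and Farsb and Farsa because these subunits of the same enzyme differed in their courses. The Aars promoter (chr8:111033592-111033891, plus strand) has ATF4 matches starting 112 bases before and 10 bases after the start and an E-box 146 bases before it. Gars (chr6:55037751-55038050, plus strand) has an ATF4 match 30 bases before the start, and Iars (chr13:49681880-49682179, plus strand) has one 8 bases after it and an E-box 69 bases before it. Farsb (chr1:78488848-78489147, minus strand) has an E-box 39 bases before the start, while Farsa (chr8:84856736-84857035, plus strand) has neither motif in this window.
Aars: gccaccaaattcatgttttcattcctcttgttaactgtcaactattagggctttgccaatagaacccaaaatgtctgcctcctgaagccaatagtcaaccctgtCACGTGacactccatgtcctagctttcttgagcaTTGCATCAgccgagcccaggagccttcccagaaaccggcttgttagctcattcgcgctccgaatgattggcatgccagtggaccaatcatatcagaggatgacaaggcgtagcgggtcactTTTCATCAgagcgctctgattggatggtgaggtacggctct
Gars: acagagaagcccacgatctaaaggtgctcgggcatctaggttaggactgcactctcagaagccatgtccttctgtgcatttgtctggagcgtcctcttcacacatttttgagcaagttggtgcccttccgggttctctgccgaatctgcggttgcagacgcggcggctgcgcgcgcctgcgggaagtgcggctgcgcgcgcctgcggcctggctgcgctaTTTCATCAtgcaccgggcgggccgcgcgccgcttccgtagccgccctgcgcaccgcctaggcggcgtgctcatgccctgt
Iars: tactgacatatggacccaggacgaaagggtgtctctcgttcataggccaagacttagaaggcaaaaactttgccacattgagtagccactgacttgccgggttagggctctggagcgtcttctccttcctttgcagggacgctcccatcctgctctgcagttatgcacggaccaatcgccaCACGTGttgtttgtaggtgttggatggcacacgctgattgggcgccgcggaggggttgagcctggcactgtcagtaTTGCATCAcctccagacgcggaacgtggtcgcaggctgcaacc
Farsb: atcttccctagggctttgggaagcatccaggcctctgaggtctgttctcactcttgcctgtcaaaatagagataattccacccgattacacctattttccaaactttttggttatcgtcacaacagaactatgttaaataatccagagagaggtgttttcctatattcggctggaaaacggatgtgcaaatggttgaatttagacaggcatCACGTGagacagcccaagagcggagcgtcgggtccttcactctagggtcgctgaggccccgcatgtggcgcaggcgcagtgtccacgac
Farsa: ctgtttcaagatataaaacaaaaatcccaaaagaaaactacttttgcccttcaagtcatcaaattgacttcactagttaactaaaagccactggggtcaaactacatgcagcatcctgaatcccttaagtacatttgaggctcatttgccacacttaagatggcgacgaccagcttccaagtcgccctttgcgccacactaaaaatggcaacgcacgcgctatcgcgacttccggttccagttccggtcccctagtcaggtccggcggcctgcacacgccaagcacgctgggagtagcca

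In standard medium the family's genes did not share a time course. Early 2-cell embryos held cytosolic synthetase mRNA at a summed 1257 ± 64.5 CPM (SD, n = 3), the sum was 821 ± 78.0 CPM at mid 2-cell (n = 4) and 1537 ± 107 CPM at late 2-cell (n = 3), and it stood at 1936 ± 275 CPM at early 4-cell (n = 4), 2652 ± 114 CPM at early 32-cell (n = 4) and 2527 ± 343 CPM at blastocyst (n = 4). The mitochondrial sum without Lars2 was 59.5 ± 8.72 CPM at early 2-cell, 339 ± 26.5 CPM at very late 2-cell (n = 3), 450.1 ± 37.3 CPM at late 8-cell (n = 2), 437 ± 112 CPM at morula (n = 6) and 209 ± 44.0 CPM at blastocyst. With Lars2, the mitochondrial leucyl enzyme, it was 123 ± 19.4 CPM at early 2-cell, 589.8 ± 26.6 CPM at very late 2-cell and 238 ± 33.5 CPM at blastocyst. The cytosolic sum was 21.4 ± 2.29 times the mitochondrial one at early 2-cell, 4.53 ± 0.124 times at very late 2-cell and 12.3 ± 1.78 times at blastocyst when Lars2 was left out. With Lars2 included the ratios were 10.3 ± 1.39, 2.6 ± 0.103 and 10.7 ± 1.56. The sums are given both ways because this 1 gene moved them by over 1.5 times at early and very late 2-cell, a choice made after its values were seen.

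The stage of the highest mean was spread over the whole course. Among the 17 mitochondrial members, Cars2, Ears2, Lars2 and Mars2 had their highest mean at very late 2-cell, Hars2 and Yars2 at late 4-cell, and Fars2 at mid 2-cell, while Rars2 and Nars2 were highest at blastocyst. Among the 20 cytosolic members, 5 were highest at early 32-cell, 4 at early 16-cell and 2 at blastocyst, and only Farsb was highest at early 2-cell. These are the highest of 12 means and neighbouring stages often lay within each other's spread, so the groups named mark a region of the course and not a sharp peak.

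**Figure D1:**
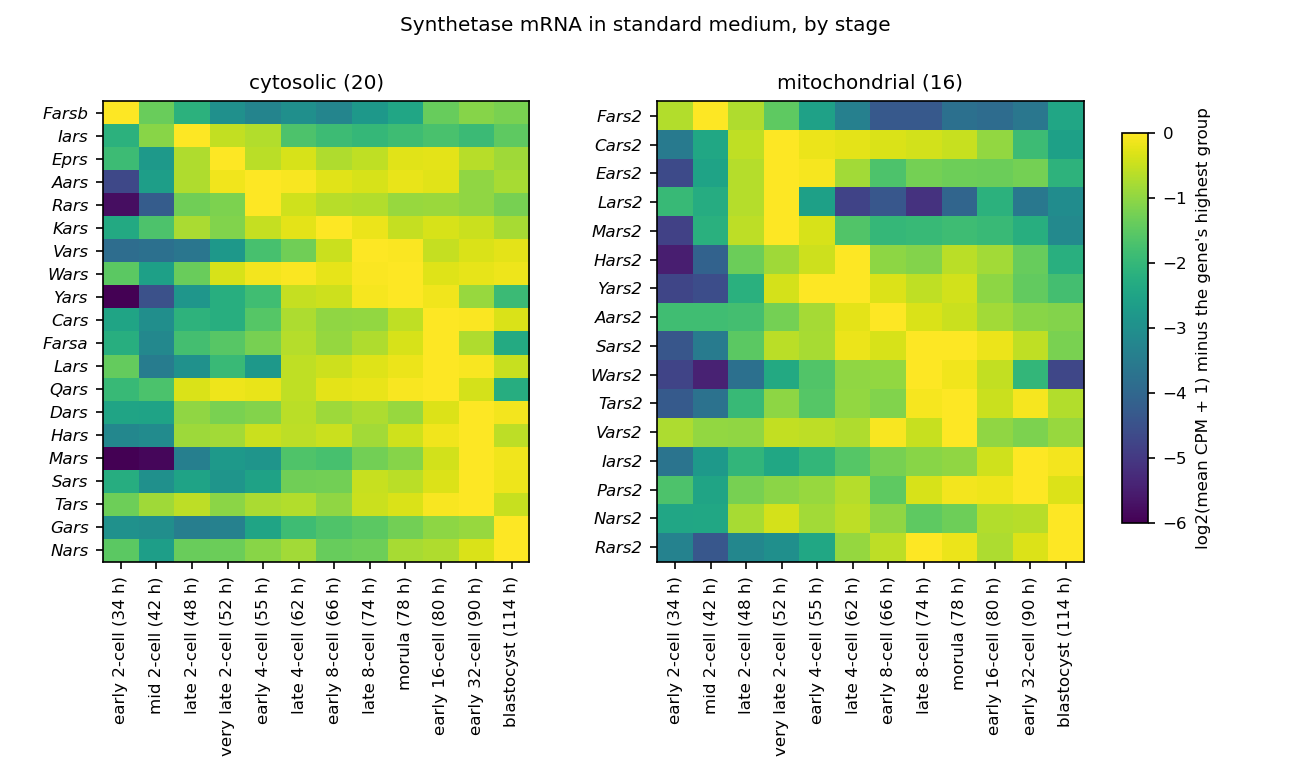
Mean level of synthetase genes in the 12 standard-medium groups, as log2(mean CPM + 1) minus the value of that gene's highest group, with 20 cytosolic genes in the left map and 16 mitochondrial genes in the right; columns run by hours after hCG. Yellow marks the levels nearest each gene's highest group and dark blue the lowest: most cytosolic genes are yellow late in development, Farsb is yellow at early 2-cell and light green again at blastocyst, and several mitochondrial genes are yellow between very late 2-cell and late 4-cell.

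Individual members spanned wide ranges. Mars, the methionyl enzyme that also charges the initiator tRNA, was 0.895, 0.405 and 0.422 CPM in early 2-cell embryos and 223, 165, 185 and 199.6 CPM in early 32-cell embryos. Yars, the tyrosyl enzyme, was 0.969, 1.07 and 1.20 CPM in early 2-cell embryos and 65.5 to 262 CPM (median 249.3) in morulae, where libraries 1 and 2 are the low ones. The mitochondrial tryptophanyl enzyme Wars2 reached 104 and 171 CPM at late 8-cell and was 4.11, 4.79, 3.27 and 4.93 CPM at blastocyst. In each of these genes the groups named did not overlap.

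Levels of different genes were compared only per kilobase of exon. The length merges all annotated exons of a gene, such as 18102 bases for Eprs, 9282 for Aars and 2620 for Farsb. It can exceed the length of the mRNA present, so ranks and ratios between genes are approximate. On that scale, averaged over the 12 standard groups, Farsb was highest at 80.8 CPM per kb, followed by Rars at 77.3, Nars at 49.1, Kars at 38.0, Gars at 37.9 and Dars at 29.9 CPM per kb. The highest mitochondrial members were Rars2 at 11.5 and Wars2 at 8.66 CPM per kb. For 17 amino acids the cytosolic and the mitochondrial gene could be paired. Eprs is the cytosolic gene for both glutamate and proline, so those pairs share it. Phenylalanine has both Farsa and Farsb in the cytosol, so its ratio depends on the subunit taken. The cytosolic gene was higher per kb in 14 of 17 pairs at early 2-cell, 12 at very late 2-cell, 16 at morula and 17 at blastocyst. The median ratio of cytosolic to mitochondrial level per kb was 12.9 at early 2-cell, 2.39 at very late 2-cell and 6.34 at blastocyst. Cysteine was the lasting exception: Cars2 stood above Cars per kb from mid 2-cell to morula, and the ratio of Cars to Cars2 was 0.153 at very late 2-cell. Cars2 is among the genes of uncertain level and shares 422 exonic bases with Naxd, so this exception is uncertain too.

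Among the cytosolic members with the highest levels per kb, means and SDs over the libraries of a stage moved in different ways (n = 3 for the 2-cell stages, 6 for morula and 4 for the others). Rars was 8.26 ± 1.15 CPM at early 2-cell, 223 ± 27.4 CPM at very late 2-cell, 509 ± 41.8 CPM at early 4-cell, 268 ± 54.6 CPM at morula, 255 ± 7.91 CPM at early 32-cell and 216 ± 10.5 CPM at blastocyst. Nars, the asparaginyl enzyme, was 147 ± 5.91 CPM at early 2-cell, 166 ± 21.0 CPM at very late 2-cell, 202 ± 75.1 CPM at early 4-cell, 243 ± 109 CPM at morula, 333 ± 17.2 CPM at early 32-cell and 422 ± 141 CPM at blastocyst. Kars, the lysyl enzyme of both compartments, was 51.2 ± 4.97 CPM at early 2-cell, 119.6 ± 13.5 CPM at very late 2-cell, 183 ± 21.7 CPM at early 4-cell, 182 ± 48.8 CPM at morula, 189 ± 8.03 CPM at early 32-cell and 152 ± 31.5 CPM at blastocyst. Rars and Nars differed by stage over wide ranges, with Nars highest at the end of the course and Rars around the early 4-cell stage. Gars was 44.7 ± 3.29 CPM at early 2-cell, 33.8 ± 10.3 CPM at very late 2-cell, 62.7 ± 24.4 CPM at early 4-cell, 146 ± 59.2 CPM at morula, 187 ± 14.7 CPM at early 32-cell and 358 ± 75.4 CPM at blastocyst. Dars, the aspartyl enzyme, was 39.7 ± 4.19 CPM at early 2-cell, 99.4 ± 16.1 CPM at very late 2-cell, 106 ± 11.4 CPM at early 4-cell, 122 ± 36.6 CPM at morula, 231 ± 17.2 CPM at early 32-cell and 214 ± 43.3 CPM at blastocyst. Of the mitochondrial members with the highest levels per kb, 3 are given over the same stages. Rars2 was 5.52 ± 2.04 CPM at early 2-cell, 7.18 ± 2.43 CPM at very late 2-cell, 11.1 ± 3.42 CPM at early 4-cell, 56.9 ± 16.0 CPM at morula, 52.1 ± 4.23 CPM at early 32-cell and 64.6 ± 18.9 CPM at blastocyst. Wars2 was 4.12 ± 0.967 CPM at early 2-cell, 26.2 ± 5.39 CPM at very late 2-cell, 43.8 ± 10.5 CPM at early 4-cell, 126 ± 20.0 CPM at morula, 32.8 ± 1.57 CPM at early 32-cell and 4.28 ± 0.759 CPM at blastocyst. Yars2 was 0.438 ± 0.223 CPM at early 2-cell, 28.5 ± 1.61 CPM at very late 2-cell, 37.3 ± 4.15 CPM at early 4-cell, 27.8 ± 8.00 CPM at morula, 13.2 ± 4.63 CPM at early 32-cell and 10.2 ± 2.37 CPM at blastocyst. Wars2 and Yars2 ended far below their middle stages, and Rars2 did not.

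The subunits of cytosolic phenylalanyl-tRNA synthetase did not run in parallel. Per kb, Farsb was 61.3 times Farsa at early 2-cell, 47.7 times at mid 2-cell, 10.5 times at late 2-cell, 4.68 times at very late 2-cell and 2.43 times at late 4-cell. The ratio was 2.94 at morula, 4.83 at early 16-cell, 9.70 at early 32-cell and 29.1 at blastocyst, where single libraries ranged from 18 to 40.1. These ratios depend on the exon lengths used, 2620 bases for Farsb and 4538 for Farsa. Without division by length, Farsb was 35.4, 27.5, 6.05, 2.70 and 1.41 times Farsa at the first 5 stages named. It was 16.8 times Farsa at blastocyst, and below Farsa in early 8-cell library 1 (0.988) and standard morula library 1 (0.710). Farsb was 631, 700.4 and 746 CPM in early 2-cell embryos, 60.1, 79.8 and 73.2 CPM in early 8-cell embryos and 367, 231, 338 and 265 CPM in blastocysts. Farsa was 17.7, 21.8 and 19.5 CPM, 60.8, 49.1 and 39.9 CPM and 15.9, 22.2, 20.3 and 15.6 CPM in the same 3 stages. Farsb was thus high at both ends of the course and low in the middle, while Farsa was highest in the middle of these 3 stages. The stages did not overlap for Farsb.

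**Figure D2:**
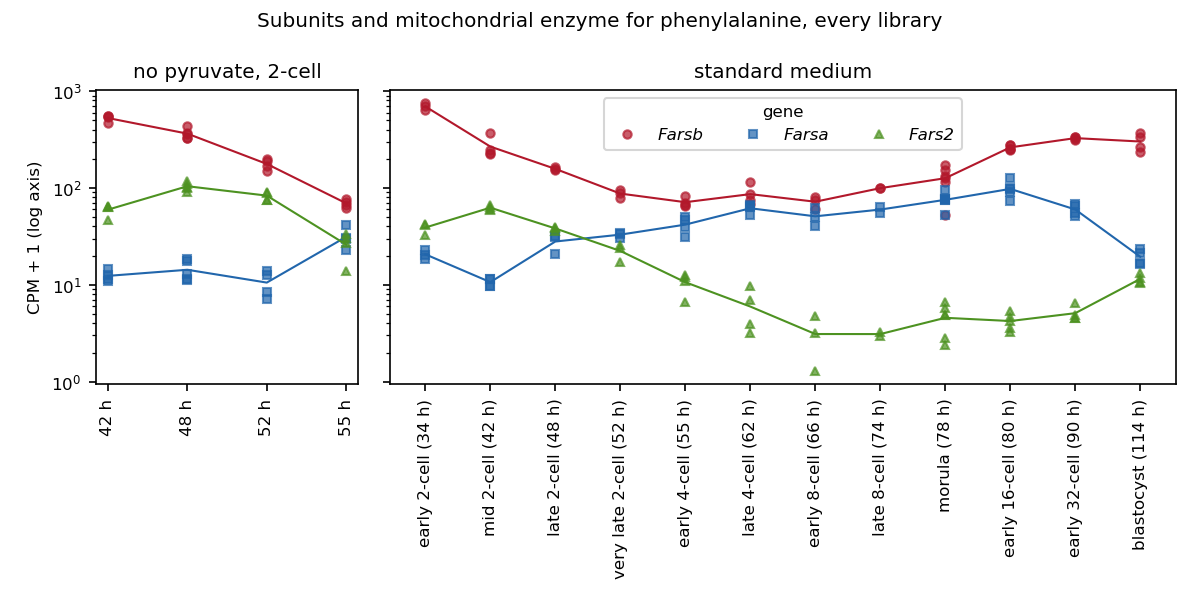
Every library's level of Farsb and Farsa, the subunits of the cytosolic phenylalanyl enzyme, and of Fars2, the mitochondrial enzyme, as CPM + 1 on a log axis against hours after hCG; the left panel holds 2-cell embryos without pyruvate at 42 to 55 h and the right panel all standard groups, with lines through group means. Farsb and Farsa approach each other between 34 and 62 h in standard medium, where the per-kb ratio reaches 2.43, and part again by 114 h.

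Late 2-cell embryos at 48 h were compared with early 2-cell embryos at 34 h, the interval in which the embryonic genome is switched on. Of the 37 members 22 were higher and 2 lower at late 2-cell, where 57.7% of all genes tested were higher and 13.7% lower. Of the members called, 14 of the 22 and both of the 2 held under every scaling. The cytosolic genes gave 11 higher and 2 lower and the mitochondrial genes 11 higher and 0 lower (0 lower at an unadjusted limma p under 0.05 as well), while the other scalings gave 6 to 8 higher and 7 to 10 lower cytosolic and 8 to 9 higher and 3 to 5 lower mitochondrial genes. The median log2 difference was 1.50 over the members (0.01 to 0.39 under the other scalings) and 0.85 over all genes. Of all called genes 80.8% were higher, and 35.9% to 53.4% under the other scalings, which moved the all-gene median to -0.51 to 0.10.

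Rars, the arginyl enzyme, was 214, 210.4 and 192 CPM in late 2-cell embryos against 6.93, 8.83 and 9.01 CPM in early 2-cell embryos (log2 difference 4.49, SE 0.18, adjusted p = 1.83e-24). Aars, the alanyl enzyme, was 45.2, 52.5 and 63.9 CPM against 2.53, 2.21 and 2.70 CPM (log2 difference 3.97, SE 0.21, adjusted p = 1.29e-20). The mitochondrial enzymes Mars2 (log2 difference 4.26, SE 0.29, adjusted p = 7.80e-17), Hars2 (log2 difference 4.14, SE 0.27, adjusted p = 1.74e-17) and Ears2 (log2 difference 4.00, SE 0.24, adjusted p = 1.39e-18), for methionine, histidine and glutamate, also rose. In all of these the late 2-cell libraries lay above every early 2-cell library. Farsb was 156, 151 and 162 CPM in late 2-cell embryos against 631, 700.4 and 746 CPM in early 2-cell embryos (log2 difference -2.14, SE 0.24, adjusted p = 2.33e-10). Lars, the cytosolic leucyl enzyme, was 3.44, 4.22 and 4.27 CPM against 12.6, 14.0 and 14.2 CPM (log2 difference -1.55, SE 0.26, adjusted p = 1.72e-06). These 2 were the members that fell, with no overlap between the stages. Beside them, 25 of 29 cytosolic translation factors and 11 of 15 mitochondrial ones rose, while 6 of 8 oocyte and maternal genes fell.

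Early 8-cell embryos at 66 h were compared with late 2-cell embryos. The family gave 19 members higher and 6 lower, with all 19 and 5 of the 6 holding under every scaling, against 24.5% of all genes higher and 47.9% lower. It had a median log2 difference of 0.75 over the members and -0.46 over all genes. Higher calls were 33.9% of all calls, and 36.0% to 54.3% under the other scalings. The comparison shares its late 2-cell libraries with the previous one, so a gene's differences in the 2 are not independent. Vars, the valyl enzyme, was 11.2, 15.5 and 5.91 CPM in early 8-cell embryos against 0.322, 0.151 and 0.540 CPM in late 2-cell embryos (log2 difference 3.07, SE 0.32, adjusted p = 3.63e-11). Lars was 31.0, 26.2 and 24.8 CPM against 3.44, 4.22 and 4.27 CPM (log2 difference 2.51, SE 0.26, adjusted p = 4.91e-11). Wars2 was 74.8, 68.0 and 65.0 CPM against 11.1, 7.73 and 8.55 CPM (log2 difference 2.81, SE 0.21, adjusted p = 5.17e-15). The stages did not overlap in these 3 genes. Iars, the isoleucyl enzyme, was 54.0, 53.2 and 36.2 CPM in early 8-cell embryos against 154, 177 and 209 CPM in late 2-cell embryos (log2 difference -1.90, SE 0.18, adjusted p = 5.15e-12). The mitochondrial Fars2 was 2.22, 0.30 and 3.79 CPM against 38.6, 35 and 37.9 CPM (log2 difference -3.81, SE 0.35, adjusted p = 1.51e-12). Lars2 was 15, 10.8 and 7.56 CPM against 38.1, 253 and 179 CPM (log2 difference -3.37, SE 0.45, adjusted p = 1.55e-08). Those 3 were lower in every early 8-cell library. Among other genes of translation, 23 of 29 cytosolic factors, 9 of 15 mitochondrial factors and 12 of 20 synthetase partners and tRNA helpers rose, and all 8 oocyte and maternal genes fell.

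Blastocysts at 114 h were compared with early 8-cell embryos, and 14 members were higher and 15 lower, against 17.1% of all genes higher and 44% lower. All 14 that rose held under every scaling, but only Wars2, Cars2 and Qars among the 15 that fell did. The other scalings gave 22 to 25 higher and 3 to 5 lower, with 14 to 17 of the 20 cytosolic and 8 of the 17 mitochondrial genes among the higher. Higher calls were 28.0% of all calls and 47.6% to 60.03% under the other scalings, with the all-gene median at -0.36 and -0.01 to 0.30. Gars, the glycyl enzyme of both compartments, was 440.1, 355, 376 and 258 CPM in blastocysts against 130.4, 116 and 91.0 CPM in early 8-cell embryos (log2 difference 1.65, SE 0.31, adjusted p = 1.03e-05). Farsb was higher too (log2 difference 2.05, SE 0.23, adjusted p = 1.60e-10), as were Mars (log2 difference 1.61, SE 0.34, adjusted p = 7.49e-05), Fars2 (log2 difference 2.08, SE 0.33, adjusted p = 6.02e-07) and Iars2 (log2 difference 1.22, SE 0.40, adjusted p = 0.00701). Wars2 was 4.11, 4.79, 3.27 and 4.93 CPM in blastocysts against 74.8, 68.0 and 65.0 CPM in early 8-cell embryos (log2 difference -3.75, SE 0.20, adjusted p = 5.89e-20). Qars, the glutaminyl enzyme, was 26.6, 28.6, 30.0 and 35.1 CPM against 122, 140.3 and 109.9 CPM (log2 difference -2.01, SE 0.14, adjusted p = 3.90e-16). Both were lower in every blastocyst library. Of the trophectoderm markers 6 of 6 rose over the same interval, while 20 of 29 cytosolic and 7 of 15 mitochondrial translation factors fell.

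Blastocysts were also compared with early 32-cell embryos at 90 h, with the same blastocyst libraries. In this interval 4 members were higher and 10 lower, against 12.6% of all genes higher and 29.1% lower. Fars2, Gars, Nars2 and Iars rose and Wars2, Qars and Farsa fell under every scaling. The higher count was 2 without early 32-cell replicate 2 or without blastocyst replicate 1. Wars2 was 4.11, 4.79, 3.27 and 4.93 CPM in blastocysts against 33.1, 32.7, 30.9 and 34.7 CPM in early 32-cell embryos (log2 difference -2.69, SE 0.19, adjusted p = 8.24e-16). Farsa was 15.9, 22.2, 20.3 and 15.6 CPM against 54.2, 50.4, 66.9 and 64.3 CPM (log2 difference -1.63, SE 0.18, adjusted p = 2.75e-10). Qars was 26.6, 28.6, 30.0 and 35.1 CPM against 109, 109.9, 120.2 and 114 CPM (log2 difference -1.88, SE 0.13, adjusted p = 1.21e-15). Gars was 440.1, 355, 376 and 258 CPM in blastocysts against 194, 172, 177 and 203 CPM in early 32-cell embryos (log2 difference 0.91, SE 0.28, adjusted p = 0.00812). None of these 4 genes overlapped between the stages. Higher calls were 30.2% of all calls and 47.0% to 57.5% under the other scalings, with the all-gene median at -0.14 and -0.01 to 0.12.

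Embryos grown without pyruvate were collected as 2-cell embryos at 42, 48, 52 and 55 h, and those of the first 3 times were compared with standard 2-cell embryos of the same age. At 42 h, 3 members were higher and 13 lower without pyruvate, against 5.58% of all genes higher and 31.2% lower. Of the members called, 3 and 8 held under every scaling. The other scalings gave 9 to 11 members higher and 8 to 11 lower. The median log2 difference was -0.27 over the members and -0.26 over all genes on CPM values, but 0.05 to 0.30 over the members under the other scalings. Higher calls were 15.2% of all calls and 43.8% to 60.2% under the other scalings. Rars was 4.96, 7.10, 6.83 and 4.28 CPM without pyruvate against 21.5, 27.7, 19.1 and 34.5 CPM in standard medium (log2 difference -1.96, SE 0.26, adjusted p = 1.45e-07). Aars was 2.70, 3.17, 4.57 and 2.90 CPM against 14.0, 13.4, 12.1 and 14.9 CPM (log2 difference -1.77, SE 0.17, adjusted p = 1.49e-10). Mars2 was 2.55, 2.17, 2.01 and 2.6 CPM against 15.8, 13.4, 12.5 and 16.1 CPM (log2 difference -2.21, SE 0.22, adjusted p = 3.53e-10). The media did not overlap in these genes, and the embryos without pyruvate were on the low side. Farsb was 548, 542, 466.4 and 547 CPM without pyruvate against 230.1, 243, 371 and 221 CPM in standard medium (log2 difference 1.01, SE 0.14, adjusted p = 2.35e-07), with no overlap. The other members that rose were Lars (log2 difference 1.42, SE 0.26, adjusted p = 2.91e-05) and Rars2 (log2 difference 0.93, SE 0.24, adjusted p = 0.00216).

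At 48 h, 3 members were higher and 24 lower without pyruvate, against 22.6% of all genes higher and 34.3% lower. Of the members called, 20 of the 24 and all 3 held under every scaling. The median log2 difference was -0.93 over the members (-0.66 to -0.58 under the other scalings) and -0.14 over all genes. Rars was 48.8, 11.3, 19.0, 23.3 and 29.5 CPM without pyruvate against 214, 210.4 and 192 CPM in standard medium (log2 difference -3.07, SE 0.27, adjusted p = 1.60e-11). Mars was 4.58, 1.82, 2.90, 2.51 and 3.53 CPM against 12.9, 17.4 and 21.4 CPM (log2 difference -2.17, SE 0.28, adjusted p = 3.32e-08). Hars2, the mitochondrial histidyl enzyme and among the genes of uncertain level, was 3.39, 1.22, 1.59, 1.71 and 2.27 CPM against 22.7, 17.4 and 21.5 CPM (log2 difference -2.86, SE 0.28, adjusted p = 1.33e-10). The media did not overlap in these genes. Farsb was 324, 356, 439, 368 and 325 CPM without pyruvate against 156, 151 and 162 CPM in standard medium (log2 difference 1.20, SE 0.14, adjusted p = 8.28e-09). Fars2 was 90.6, 100.4, 99.1, 116 and 109.7 CPM against 38.6, 35 and 37.9 CPM (log2 difference 1.44, SE 0.21, adjusted p = 3.54e-07). Both phenylalanine genes were higher in every library without pyruvate, while Farsa was lower (log2 difference -0.97, SE 0.22, adjusted p = 2.92e-04). Gars was the other member called higher (log2 difference 0.89, SE 0.27, adjusted p = 0.00470), with overlapping libraries.

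At 52 h the family's median log2 difference was -1.24 and that of all genes 0.08. Of the members 27 were lower and 3 higher without pyruvate, where 31.3% of all genes were lower and 31.9% higher. Of the members called, 24 of the 27 and all 3 held under every scaling. The lower members were 15 of 20 cytosolic genes, with 7 of the 8 multi-synthetase members among them, and 12 of 17 mitochondrial genes. Cars, Iars, Sars, Iars2, Lars2, Pars2 and Vars2 did not pass, with log2 differences of -0.59, 0.00, 0.03, 1.03, 0.75, -0.62 and -0.40. The cytosolic genes summed to 855 to 959 CPM without pyruvate against 1428 to 1659 CPM in standard medium. The mitochondrial genes without Lars2 summed to 141 to 189.6 CPM against 309 to 361 CPM. With Lars2 included their sums overlapped, at 582 to 619 CPM without pyruvate against 559.7 to 609.8 CPM in standard medium.

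Rars was 62.7, 40.8, 49.6 and 35.9 CPM without pyruvate against 216, 253 and 199 CPM in standard medium (log2 difference -2.24, SE 0.29, adjusted p = 3.10e-08). Wars2 was 0.365, 0.560, 0.370 and 1.63 CPM against 22.6, 23.5 and 32.4 CPM (log2 difference -4.01, SE 0.30, adjusted p = 4.65e-13), with library 4 without pyruvate above the other 3 yet below every standard library. Yars2, the mitochondrial tyrosyl enzyme, was 2.19, 6.11, 2.41 and 4.02 CPM without pyruvate against 28.5, 26.8 and 30.1 CPM in standard medium (log2 difference -2.73, SE 0.29, adjusted p = 6.86e-10). Mars (log2 difference -1.96, SE 0.29, adjusted p = 5.36e-07), Hars (log2 difference -1.84, SE 0.18, adjusted p = 1.34e-10) and Hars2 (log2 difference -2.38, SE 0.29, adjusted p = 1.75e-08) were lower as well, none with overlapping libraries. Farsb was 168, 189, 198 and 148 CPM without pyruvate against 87.0, 94.5 and 77.9 CPM in standard medium (log2 difference 1.01, SE 0.15, adjusted p = 5.32e-07). Gars was 77.5, 68.3, 60.5 and 52.5 CPM against 26.8, 45.6 and 29.0 CPM (log2 difference 0.94, SE 0.28, adjusted p = 0.00401). Fars2 was 90.9, 75.0, 88.7 and 74.7 CPM against 23.0, 24.9 and 16.1 CPM (log2 difference 1.91, SE 0.22, adjusted p = 3.68e-09). These 3 were the members that rose, each in every library without pyruvate. The per-kb ratio of Farsb to Farsa ranged from 26.5 to 48.0 without pyruvate, against 4.55 to 4.87 in standard medium.

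**Figure D3:**
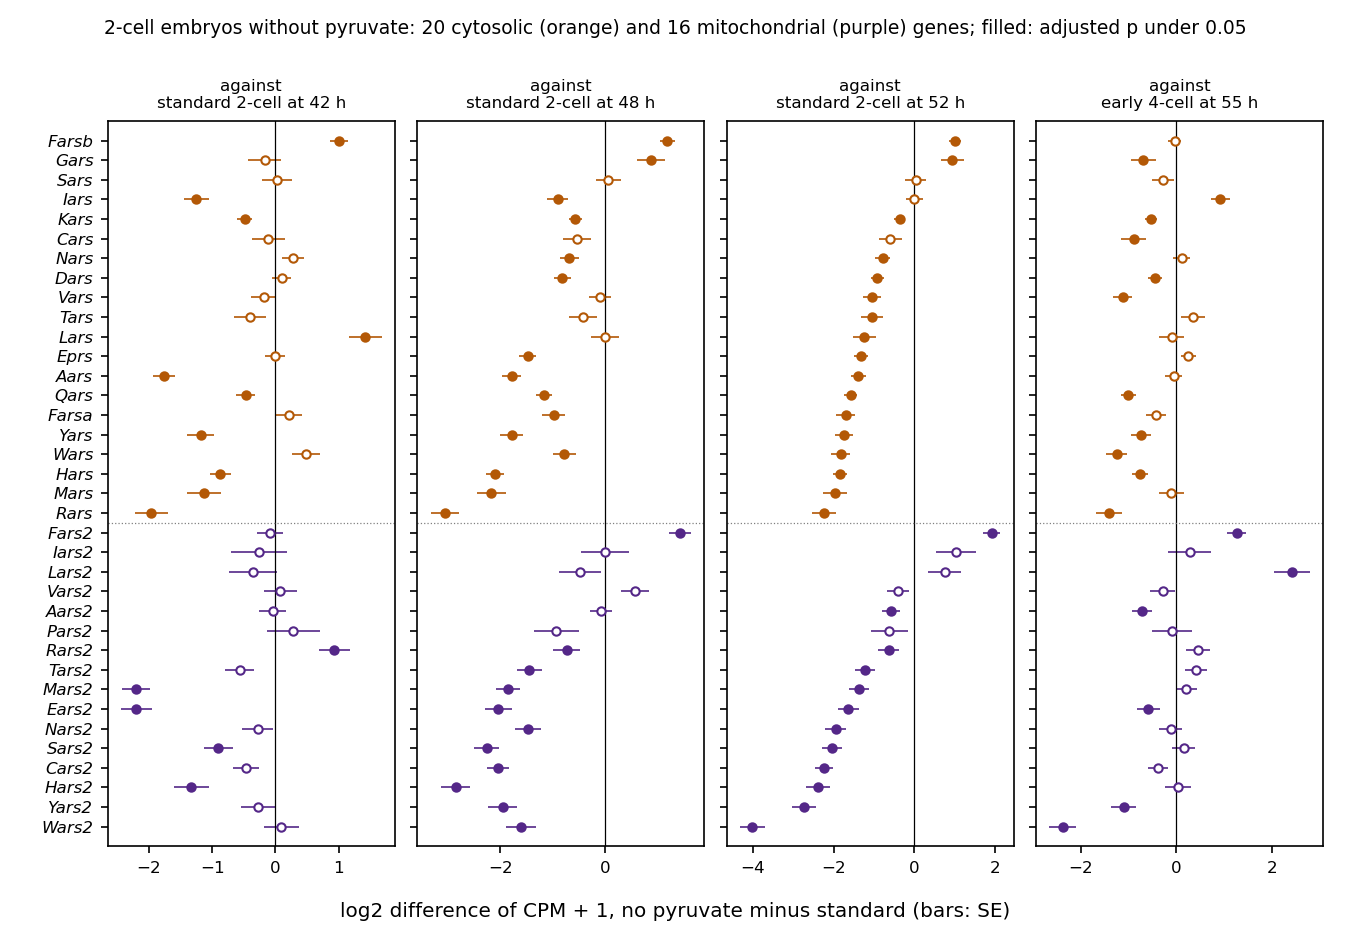
Log2 difference with its standard error for 36 of the 37 genes in 4 panels, 2-cell embryos without pyruvate against standard 2-cell embryos at 42, 48 and 52 h and against early 4-cell embryos at 55 h; filled points passed at an adjusted p of 0.05. The points move left of 0 between 42 and 52 h, from a median over all members of -0.27 (0.05 to 0.30 under the other scalings) to -1.24, with Farsb and Fars2 to the right at 48 and 52 h.

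Other genes of protein synthesis were lower at 52 h in the same embryos: 27 of 29 cytosolic translation factors, 10 of 15 mitochondrial ones and 12 of 20 partners and tRNA helpers. The tRNA methyltransferase gene Trmt61a was 2.37 ± 1.47 CPM without pyruvate and 20.5 ± 3.03 CPM in standard medium (SD, n = 4 and 3). The mitochondrial elongation factor gene Tufm was 2.39 ± 1.30 CPM and 21.5 ± 3.14 CPM. Of 26 ATF4 target genes that are not synthetases 9 were lower and 6 higher at 52 h. That is near the shares over all genes tested, 31.3% lower and 31.9% higher. The median log2 difference of this list was -0.08, with single genes going both ways. The serine synthesis gene Phgdh was 8.43 ± 2.01 CPM without pyruvate and 144 ± 25.6 CPM in standard medium. The oocyte and maternal list moved opposite to the translation factors, with 7 of 8 genes higher and 1 lower at both 48 and 52 h. Its sum was 14053 to 17774 CPM without pyruvate against 3386 to 3701 CPM in standard medium at 48 h, and 4873 to 5551 CPM against 813 to 984 CPM at 52 h. Cumulus and granulosa markers gave 3 of 3 tested genes higher at 48 h, with all 9 summing to 8.26 to 13.3 CPM without pyruvate against 1.11 to 2.92 CPM in standard medium. Fshr, Inhba, Amh, Nr5a1, Vcan and Ptx3 were below 1 CPM in every library of both groups. Sperm markers gave 2 of 2 tested genes higher, with all 5 summing to 5.00 to 7.22 CPM against 0.680 to 0.933 CPM, and Prm1, Tnp1 and Tnp2 below 1 CPM. The part of these 3 marker lists in the synthetase result was not tested.

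At 55 h the 2-cell embryos without pyruvate were compared both with standard early 4-cell embryos of the same age and with standard very late 2-cell embryos at 52 h, of the same cell number. Both comparisons use the same libraries without pyruvate, and the second shares its standard libraries with the 52 h comparison. Against early 4-cell embryos 3 members were higher and 14 lower, where 37.7% of all genes were higher and 19.5% lower. All 17 held under every scaling. Higher calls were 65.9% of all calls and 43.3% to 57.3% under the other scalings, with the all-gene median at 0.27 and -0.12 to 0.14. Rars was 226, 279, 127 and 165 CPM without pyruvate against 569.6, 476, 501 and 489.5 CPM in early 4-cell embryos (log2 difference -1.41, SE 0.26, adjusted p = 2.80e-05). Wars2 was 10.4, 13.1, 6.56 and 3.25 CPM against 50.9, 36.5, 33.3 and 54.5 CPM (log2 difference -2.37, SE 0.28, adjusted p = 9.98e-09). Iars was 192, 173, 218 and 242 CPM without pyruvate against 144, 78.6, 113 and 105 CPM in early 4-cell embryos (log2 difference 0.92, SE 0.20, adjusted p = 1.73e-04). Lars2 was 144, 200.4, 263 and 283 CPM against 27.1, 47.4, 53.5 and 35.9 CPM (log2 difference 2.41, SE 0.38, adjusted p = 1.93e-06). In none of these did the groups overlap. Fars2 was the other member called higher (log2 difference 1.26, SE 0.20, adjusted p = 2.91e-06).

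Against very late 2-cell embryos at 52 h, 2 members were higher and 7 lower, against 18.4% of all genes higher and 16.1% lower. The median log2 difference was -0.22 over the members and 0.00 over all genes. The lower count was 4 without any of the 3 very late 2-cell libraries and 11 without replicate 2 of the embryos without pyruvate. Wars2 was 10.4, 13.1, 6.56 and 3.25 CPM without pyruvate at 55 h against 22.6, 23.5 and 32.4 CPM in standard medium at 52 h (log2 difference -1.66, SE 0.30, adjusted p = 6.83e-05). Qars was 52.5, 86.4, 50.5 and 69.3 CPM against 114, 142 and 141 CPM (log2 difference -1.05, SE 0.16, adjusted p = 5.39e-06). Rars2, the mitochondrial arginyl enzyme, was 12.2, 17.7, 15.2 and 15.5 CPM without pyruvate against 8.76, 8.40 and 4.38 CPM in standard medium (log2 difference 1.02, SE 0.26, adjusted p = 0.00284). Iars was 192, 173, 218 and 242 CPM against 114, 149 and 105 CPM (log2 difference 0.75, SE 0.21, adjusted p = 0.00643). Each of these 4 genes was clear of overlap. The maternal list stood at 863 to 1167 CPM without pyruvate at 55 h, against 234 to 314 CPM in early 4-cell and 813 to 984 CPM in very late 2-cell embryos. The per-kb ratio of Farsb to Farsa at 55 h ranged from 3.26 to 4.83 without pyruvate, against 2.43 to 4.00 in early 4-cell embryos, and these ranges overlapped.

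Morulae that developed without pyruvate had 4 members higher and 3 lower than standard morulae, against 32.8% of all genes higher and 6.62% lower. Fars2 was higher and Wars2, Aars and Vars2 lower under every scaling. The other scalings gave 1 to 2 higher and 5 to 10 lower. Higher calls over all genes were at 83.2% and 42.6% to 65.0% under them and the all-gene median at 0.28 and -0.09 to 0.09. Wars2 was 41.2, 60.2, 42.3, 47.7 and 54.0 CPM without pyruvate against 107 to 165 CPM (median 121) in standard medium (log2 difference -1.35, SE 0.13, adjusted p = 7.01e-08). Aars was 48.4, 39.0, 37.6, 55.1 and 56.9 CPM against 57.0 to 91.6 CPM (median 80.8) (log2 difference -0.72, SE 0.15, adjusted p = 8.68e-04). Fars2 was 11.2, 13.5, 10.1, 9.97 and 7.43 CPM without pyruvate against 1.40 to 5.62 CPM (median 3.89) in standard medium (log2 difference 1.40, SE 0.26, adjusted p = 1.83e-04). These 3 genes did not overlap between media. Wars, the cytosolic tryptophanyl enzyme, was 166, 133, 119, 155 and 136 CPM without pyruvate against 28.3 to 119 CPM (median 114) in standard medium (log2 difference 0.81, SE 0.28, adjusted p = 0.0245). Its call was lost without standard morula libraries 1 and 2, and without them 2 members were higher and 6 lower.

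Beside this, 14 of 25 ATF4 target genes that are not synthetases rose in morulae without pyruvate and 0 fell. Of all genes tested 32.8% were higher and 6.62% lower on these CPM values. All 28 genes of that list summed to 2380 to 3628 CPM without pyruvate against 1795 to 3232 CPM in standard medium, and these ranges overlapped. Asparagine synthetase Asns, a known ATF4 target that makes an amino acid and charges no tRNA, was 48.7 ± 16.6 CPM without pyruvate and 17.6 ± 7.82 CPM in standard medium (SD, n = 5 and 6). The 5 synthetases with an ATF4 match in the promoter gave log2 differences of -0.72 for Aars, 0.12 for Gars, 0.58 for Iars, 0.04 for Tars and -0.29 for Yars, of which Iars passed as higher and Aars as lower. The remaining call was Nars2, the mitochondrial asparaginyl enzyme, which was higher (log2 difference 0.80, SE 0.25, adjusted p = 0.0138). Of the cytosolic translation factors 14 of 29 fell. Trophectoderm markers gave 3 of 6 higher and 1 lower and summed to 264 to 1092 CPM without pyruvate against 118 to 259 CPM in standard medium, with none below 1 CPM in every library of either group. Their part in the result was not tested.

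Without lactate, morulae gave 2 members higher and 1 lower, against 8.37% of all genes higher and 3.42% lower, from the same standard libraries. None of the 20 cytosolic members passed by limma (1 higher and 1 lower at an unadjusted p under 0.05). Wars2 was 96.9, 98.8, 93.6, 91.2 and 93.6 CPM without lactate against 107 to 165 CPM (median 121) in standard medium (log2 difference -0.40, SE 0.13, adjusted p = 0.0479), clear of overlap. It no longer passed without any of standard morula libraries 3 to 6 or any of the 5 libraries without lactate. Lars2 (log2 difference 1.17, SE 0.28, adjusted p = 0.00826) and Mars2 (log2 difference 0.74, SE 0.23, adjusted p = 0.0375) were the members that rose, both with overlapping libraries. Without standard morula libraries 1 and 2 the counts were 1 higher and 7 lower. Higher calls were 71.0% of all calls and 42.8% to 59.9% under the other scalings.

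Morulae given KY-PYR-9 in medium without pyruvate had lower shares of most genes, the synthetases among them. In inhibitor-treated morulae 24 members were lower and 3 higher than in morulae without pyruvate alone, against 67.1% of all genes lower and 8.61% higher. The median log2 difference was -0.98 over the members (-0.14 to 0.14 under the other scalings) and -0.90 over all genes. The other scalings moved the all-gene median to -0.21 to 0.09 and gave 3 to 7 members lower and 5 to 11 higher. Of all calls 42.7% to 59.1% were then higher, against 11.4% in the CPM values. Under every scaling Tars2, Vars and Rars2 were lower and Lars2, Farsb and Farsa higher. By compartment 15 of 17 mitochondrial genes and 9 of 20 cytosolic genes were lower, and 1 and 2 were higher. The median was -1.29 for mitochondrial and -0.56 for cytosolic genes. Under the other scalings the mitochondrial median was -0.45 to -0.19 and the cytosolic median 0.00 to 0.49, so the cytosolic direction turned. Dars, Eprs, Kars, Lars, Mars and Rars of the multi-synthetase complex did not pass, with log2 differences of 0.09, -0.36, -0.27, -0.52, -0.77 and -0.20.

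Tars2, the mitochondrial threonyl enzyme, was 7.0, 7.42, 7.16 and 7.49 CPM with the inhibitor against 33.7, 32.6, 36.6, 34.9 and 39.7 CPM without it (log2 difference -2.14, SE 0.25, adjusted p = 2.48e-07). Vars was 3.15, 2.97, 3.53 and 3.19 CPM against 12.8, 12.6, 9.95, 15.7 and 16.5 CPM (log2 difference -1.77, SE 0.21, adjusted p = 3.27e-07). Rars2 was 19.0, 22.0, 20.8 and 19.5 CPM against 58.0, 60.7, 59.8, 78.0 and 76.6 CPM (log2 difference -1.65, SE 0.22, adjusted p = 1.13e-06). Every inhibitor-treated library lay below every other in these genes. Farsa was 106, 95.8, 85.7 and 94.0 CPM with the inhibitor against 58.3, 55.5, 47.4, 78.6 and 77.5 CPM without it (log2 difference 0.60, SE 0.17, adjusted p = 0.00303). Lars2 was 92.4, 84.2, 42.6 and 92.5 CPM against 9.27, 9.04, 10.9, 10.2 and 7.47 CPM (log2 difference 2.87, SE 0.31, adjusted p = 5.86e-08), where the inhibitor-treated library 3 is the low one, and neither gene overlapped between the groups. Farsb (log2 difference 0.68, SE 0.26, adjusted p = 0.0214) no longer passed without inhibitor-treated replicate 4 or without replicate 1 or 3 of the medium alone. The mitochondrial sum without Lars2 was 147 to 183 CPM with the inhibitor against 346 to 475 CPM without it. The cytosolic sum was 9.47 to 12.6 times the mitochondrial one with it, against 5.09 to 6.34 times without it. With Lars2 included the mitochondrial sum was 226 to 256 CPM against 356 to 485 CPM and the ratio 6.58 to 7.71 against 4.93 to 6.21. None of these ranges overlapped between the groups.

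The Farsb, Aars, Iars, Tars and Ears2 promoters hold an E-box match, and with the inhibitor these genes gave log2 differences of 0.68, -1.24, -1.49, -0.35 and -1.29. Among other lists, 14 of 15 mitochondrial translation factors fell and 1 rose, and cytosolic factors split into 9 of 29 lower and 8 higher. Of the ATF4 target genes 20 of 25 fell. On these CPM values 67.1% of all genes tested were lower and 8.61% higher. The sums of mitochondrial factors overlapped, at 1421 to 1531 CPM with the inhibitor against 1102 to 1462 CPM without it. Those of ATF4 target genes also overlapped, at 2550 to 2724 CPM against 2380 to 3628 CPM. The cytosolic factors summed to more with the inhibitor, 19491 to 21080 CPM against 16405 to 18923 CPM. Yrdc, which makes the intermediate for the N6-threonylcarbamoyl mark on tRNAs, was 28.3 ± 5.87 CPM with the inhibitor and 283 ± 80.9 CPM without it (SD, n = 4 and 5). Inhibitor-treated libraries had 15.9 to 21.6 M reads against 34.0 to 38.0 M reads, 11688 to 11964 against 14087 to 14997 genes above 1 CPM, and 13.9% to 16.5% against 8.09% to 9.66% of reads in the 20 most abundant genes. Trophectoderm markers fell in 5 of 6 genes and summed to 54.7 to 78.9 CPM with the inhibitor against 264 to 1092 CPM without it. Inner cell mass markers fell in 3 of 5 and summed to 67.0 to 77.3 CPM against 94.4 to 138 CPM, with Sox2 below 1 CPM in every inhibitor-treated library. The part of depth and of these markers in the result was not tested.

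**Figure D4:**
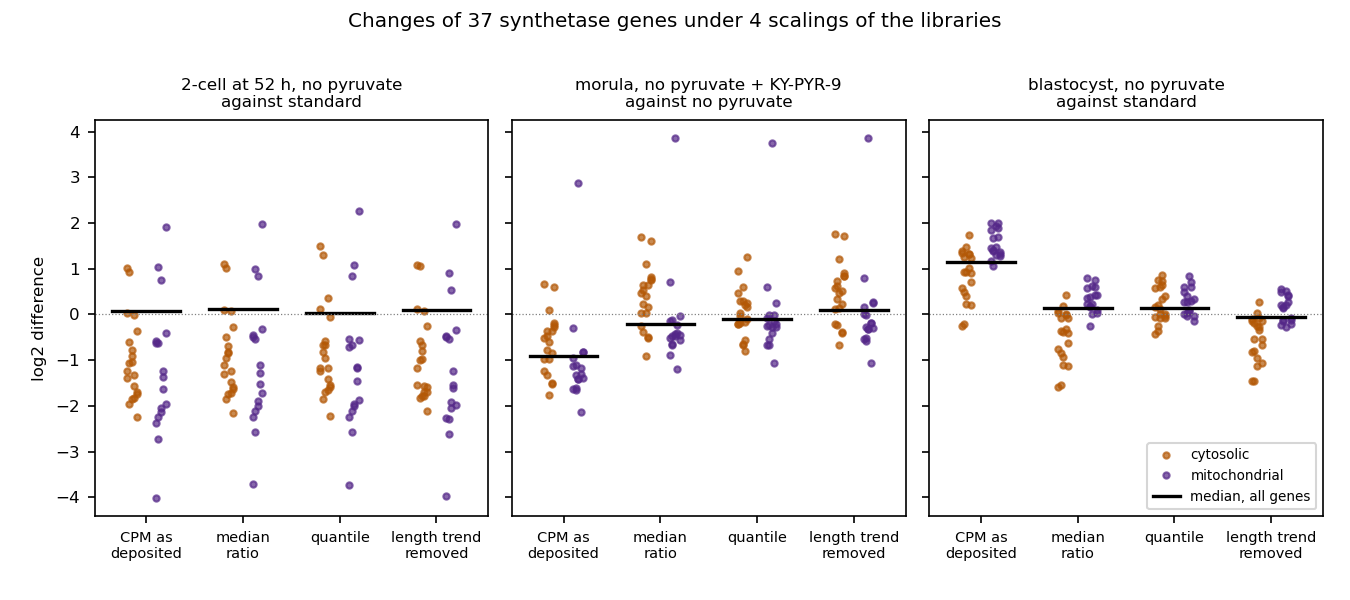
Log2 difference of each of the 37 genes under 4 scalings (points, 1 per gene) for 2-cell embryos without pyruvate at 52 h, inhibitor-treated morulae and blastocysts without pyruvate, each against its own comparison group; the bar is the median of all genes tested. At 52 h most points stay below 0 under each scaling, while in the other 2 comparisons the points move with the bar.

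Blastocysts that developed without pyruvate had, on CPM values, the largest count of higher synthetases among the 16 comparisons. Of the members 32 were higher and 0 lower by limma (33 and 0 at an unadjusted p under 0.05), but 80.8% of all genes were also higher and 7.14% lower. The other scalings gave 4 to 13 members higher and 1 to 11 lower. The median log2 difference was 1.31 over the members (-0.15 to 0.21 under the other scalings) and 1.15 over all genes. The other scalings put the all-gene median at -0.06 to 0.14 and the share of higher calls at 39.0% to 56.7%, against 91.9%. Among the members named here, Wars2, Mars2 and Hars2, all mitochondrial, were the ones higher under every scaling. All 17 mitochondrial genes rose on CPM values, with 4 to 8 of them higher and 0 lower under the other scalings (limma). Of the 20 cytosolic genes 15 rose on CPM values, while 1 was higher and 10 lower by median ratio, 7 higher and 1 lower by quantiles, and 0 higher and 11 lower with the length trend removed. The cytosolic median log2 difference was 0.93 on CPM values and -0.37, 0.14 and -0.44 under those scalings, and the mitochondrial median was 1.45 on CPM values and 0.35, 0.27 and 0.16.

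Wars2 was 22.1, 20.4, 20.4, 22.8 and 15.4 CPM in blastocysts without pyruvate against 4.11, 4.79, 3.27 and 4.93 CPM in standard blastocysts (log2 difference 2.01, SE 0.18, adjusted p = 1.15e-08). Mars2 was 29.6, 33.4, 32.4, 33.7 and 22.9 CPM against 6.60, 7.86, 5.56 and 7.44 CPM (log2 difference 1.99, SE 0.16, adjusted p = 4.98e-09). Every library without pyruvate was above every standard library in both genes. Qars was 88.1, 101, 103, 108 and 115 CPM without pyruvate against 26.6, 28.6, 30.0 and 35.1 CPM in standard medium (log2 difference 1.74, SE 0.13, adjusted p = 3.56e-09), with a log2 difference of 0.26 to 0.73 under the other scalings. Aars was 104, 135, 163, 159 and 128 CPM against 47.4, 62.8, 53.4 and 42.8 CPM (log2 difference 1.40, SE 0.16, adjusted p = 1.94e-07), without overlap, but its difference was -0.14 once the length trend was removed. Dars, Farsb, Gars, Nars and Rars did not pass, with log2 differences of 0.24, -0.26, -0.20, 0.41 and 0.22.

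On CPM values the cytosolic sum was 5.00 to 6.23 times the mitochondrial sum without Lars2 in blastocysts without pyruvate, against 10.1 to 14.4 times in standard blastocysts, and 4.59 to 5.74 against 9.22 to 12.5 times with Lars2 included. Farsb was 7.61 to 13.6 times Farsa per kb without pyruvate, against 18 to 40.1 times in standard medium. None of these ratios overlapped between the media. A single factor per library leaves them unchanged, but quantile scaling and removal of the length trend change genes of a library unequally. In the same embryos 16 of 20 partners and tRNA helpers rose, among them Qrsl1, the amidotransferase subunit that makes mitochondrial glutaminyl-tRNA, at 50.9 ± 6.34 CPM without pyruvate and 14.2 ± 2.92 CPM in standard medium (SD, n = 5 and 4). In addition 14 of 15 mitochondrial and 21 of 29 cytosolic translation factors rose, where 80.8% of all genes tested were higher on CPM values. The cytosolic factors nevertheless summed to less, 14084 to 14484 CPM without pyruvate against 15659 to 17421 CPM in standard medium. The mitochondrial factors summed to 1233 to 1268 CPM against 830 to 1150 CPM. For the partners and helpers the sums were 1416 to 1541 CPM against 845 to 1019 CPM.

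Libraries without pyruvate also differed in make-up. Their 20 most abundant genes took 10.4% to 12.2% of reads against 18.9% to 22.2% in standard blastocysts, and 13869 to 14130 against 11334 to 11959 genes lay above 1 CPM. Depth differed too, at 10.5 to 17.1 M reads without pyruvate against 24.7 to 32.6 M reads in standard medium. Trophectoderm markers gave 1 of 6 higher and 2 lower and summed to 7528 to 8422 CPM without pyruvate against 12895 to 17663 CPM in standard medium. Inner cell mass markers rose in 5 of 5 genes, where 80.8% of all genes tested were higher on these CPM values. The inner cell mass list summed to 227 to 263 CPM without pyruvate against 62.1 to 120.1 CPM in standard medium. No gene of either list was below 1 CPM in every library of these groups. The part of depth, of the marker lists and of the top genes' share in the synthetase result was not tested.

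Blastocysts without lactate, compared with the same standard libraries, gave 2 members higher and 2 lower, against 14% of all genes higher and 9.29% lower. All 4 held under every scaling. Qars was 44.8, 44.7, 49.4 and 49.1 CPM without lactate against 26.6, 28.6, 30.0 and 35.1 CPM in standard medium (log2 difference 0.63, SE 0.14, adjusted p = 0.00321). Lars2 was 59.0, 110.0, 192 and 26.2 CPM against 16.4, 11.2, 25 and 62.7 CPM (log2 difference 1.66, SE 0.49, adjusted p = 0.0202). Gars was 253, 201, 249.4 and 221 CPM without lactate against 440.1, 355, 376 and 258 CPM in standard medium (log2 difference -0.61, SE 0.16, adjusted p = 0.00979). Fars2 was 6.62, 4.08, 5.10 and 5.92 CPM against 10.8, 12.2, 9.75 and 9.34 CPM (log2 difference -0.85, SE 0.16, adjusted p = 0.00105). The media did not overlap in Qars, Gars and Fars2, and they overlapped in Lars2. Without standard replicate 4 the lower count was 6. Other ATF4 target genes fell in 9 of 22 and rose in 1. Asns was 69.0 ± 26.3 CPM without lactate and 192 ± 71.9 CPM in standard medium (SD, n = 4 each). Trophectoderm markers fell in 5 of 6 genes and summed to 8235 to 10215 CPM without lactate against 12895 to 17663 CPM in standard medium. Inner cell mass markers rose in 2 of 5 and summed to 146 to 217 CPM against 62.1 to 120.1 CPM. The part of both lists in the result was not tested.

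**Figure D5:**
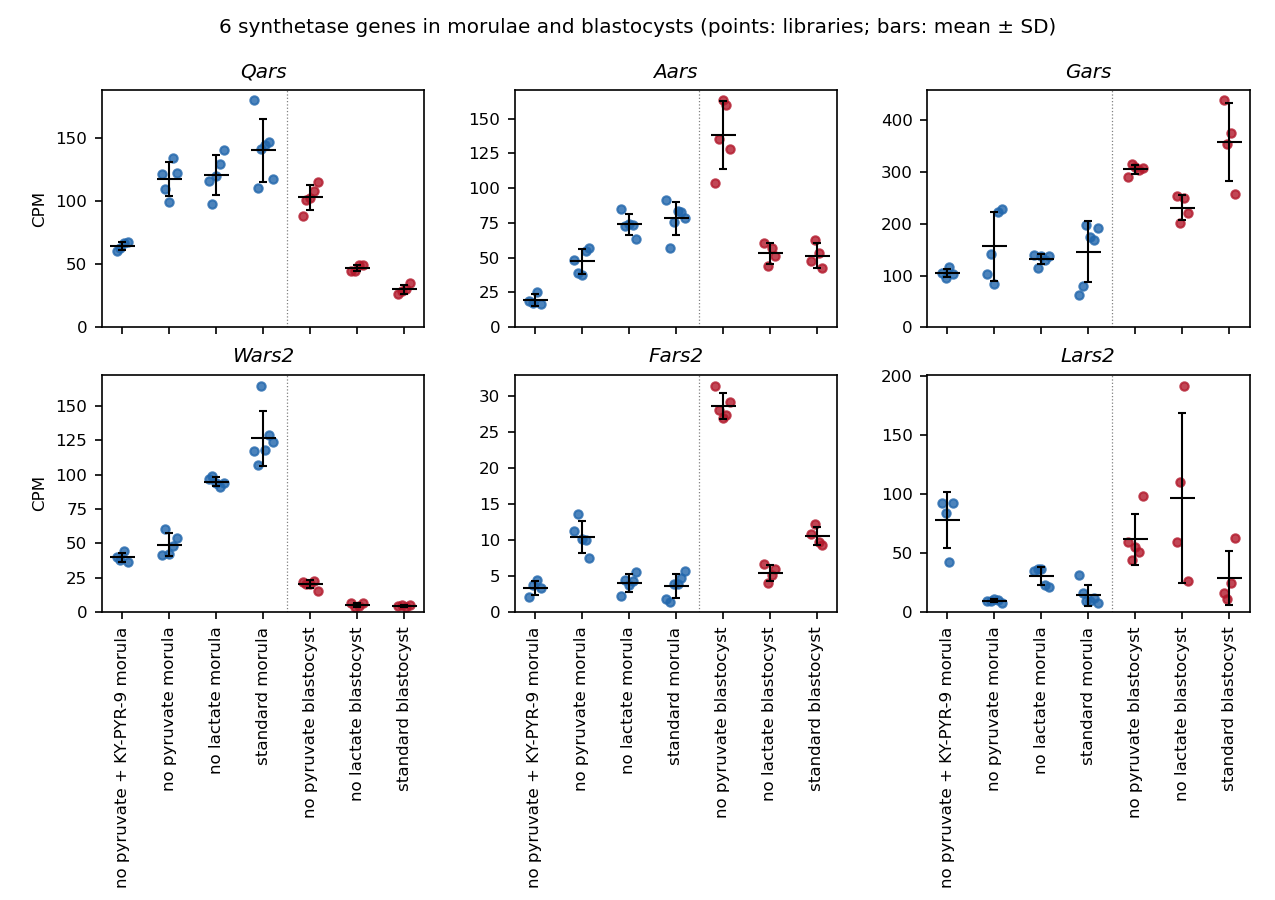
CPM of Qars, Aars, Gars, Wars2, Fars2 and Lars2 in every library of the 7 morula and blastocyst groups, with the mean and SD as a bar and whiskers. Wars2 lies between 3.27 and 4.93 CPM in standard blastocysts and is higher in every blastocyst library without pyruvate. On CPM values Qars is higher in both changed media at that stage, but only its call without lactate held under every scaling.

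The effect of a medium in blastocysts was then set against its effect in morulae in a single model, as the difference of differences. For pyruvate 25 members had a more positive effect in blastocysts and 0 a more negative one by limma (26 and 0 at an unadjusted p under 0.05), where 46% of all genes were more positive and 12.1% more negative. The other scalings gave 6 to 11 more positive and 1 to 7 more negative, with the cytosolic median at 0.78 in CPM values and -0.23 to 0.21 under them and the mitochondrial median at 1.52 and 0.52 to 0.58. Wars2, Aars, Qars, Vars2 and Ears2 held under every scaling. Their medium effect in blastocysts exceeded that in morulae by 3.36 (SE 0.22, adjusted p = 4.40e-12) for Wars2, 2.12 (SE 0.22, adjusted p = 1.01e-08) for Aars, 1.98 (SE 0.19, adjusted p = 3.02e-09) for Qars, 1.90 (SE 0.29, adjusted p = 2.34e-06) for Vars2 and 1.86 (SE 0.32, adjusted p = 1.53e-05) for Ears2. Wars2 and Aars were lower without pyruvate in morulae and higher in blastocysts, with the exception of the value of -0.14 for Aars in blastocysts once the length trend was removed. For lactate 1 member was more positive and 1 more negative, against 4.04% and 5.54% of all genes. Qars held under every scaling (log2 difference 0.84, SE 0.20, adjusted p = 0.00728) while Fars2 did not (log2 difference -1.05, SE 0.33, adjusted p = 0.0431). These contrasts reuse the libraries of the 4 morula and blastocyst comparisons.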

How the data were processed

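The deposited table holds CPM per gene for each library. Per the submitters' processing notes, the authors used STAR 2.6.1d and the mm10 build; the counting tool and annotation are not given in the sources used here. From the values, low entries were whole reads within 0.1 for 70.6% to 79.3% of entries of up to 20 reads, so counts were partly fractional and no count test was run. Of 91 columns 85 matched a sample by name and 6 were not used. Rows named by a number (26, 0.0458% to 0.194% of a library) were left out. Of the gene rows used, 36810 matched GENCODE vM21 by name.

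At 10 CPM the counting SD ranges from 4.84% (deepest library) to 9.90% (shallowest). No libraries were identical. Groups came from the labels. Differences were tested with limma 3.58.1 in R 4.3.3 with a mean trend, on log2(CPM + 1), keeping genes with 3 or more libraries over 1 CPM, in 5 fits for 16 comparisons, with Benjamini-Hochberg adjustment over all genes and a threshold of 0.05; the fits were tested on simulated data. Other steps used Python 3.11.15, pandas 2.3.3 and scipy 1.17.1. Alternatives were a pseudocount of 0.1, no filter, median-ratio and quantile scaling, removal of a lowess trend (span 0.3) with exon length, fits of the compared groups alone, a replicate block, and each library left out.

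Full values are given for up to 3 cytosolic and 3 mitochondrial members with the largest rise, and as many with the largest fall, that passed, did not overlap and reached 10 CPM in the higher group, from which the most marked are printed; members that complete a count of 5 or fewer, and Farsa at 48 h, were named after their values were seen. The members and the gene lists were chosen with earlier results of these data known. The values of 1 mitochondrial member are not reported here; it stays in the counts, sums and medians.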

Additional observations from a re-analysis of the deposited data

Results flagged for a closer look

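Among groups of 4 to 10 libraries a library was set apart where its gap to the nearest other library was a large share of the group's range (Dixon's 95% critical value). Of 107 groups of a named member examined, 6 had such a library (5.61%), where chance gives 5%. In blastocysts Yars2 was 6.63 CPM in library 4 and 11.3 to 11.4 CPM in the others. In early 32-cell embryos Fars2 was 5.43 CPM in library 4 and 3.52 to 3.84 CPM in the others. Farsb was 466.4 CPM in library 3 of the 2-cell embryos without pyruvate at 42 h and 542 to 548 CPM in the others, and 371 CPM in library 3 of the standard mid 2-cell embryos and 221 to 243 CPM in the others. Wars2 was 1.63 CPM in library 4 of the 2-cell embryos without pyruvate at 52 h and 0.365 to 0.560 CPM in the others. Lars2 was 42.6 CPM in library 3 of the inhibitor-treated morulae and 84.2 to 92.5 CPM in the others.

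The effect of a medium differed between blastocysts and morulae for 5 members without pyruvate and 1 without lactate, by limma's test of the difference of differences and under every scaling. Without pyruvate the log2 effect in blastocysts exceeded that in morulae by 3.36 for Wars2, 2.12 for Aars, 1.98 for Qars, 1.90 for Vars2, which averaged under 4 CPM in every group, and 1.86 for Ears2. Without lactate it did so by 0.84 for Qars.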

How the results depend on the processing

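Counts of members called under each alternative are given as higher or lower, after the count in the report. Late against early 2-cell had 22 higher and 14 with the length trend removed, and 2 lower but 12 by median ratio, 12 by quantiles and 15 with the length trend removed. Blastocyst against early 8-cell had 14 higher but 25, 22 and 23 under median ratio, quantiles and length, and 15 lower but 3, 5 and 5. Blastocyst against early 32-cell had 4 higher but 12 by median ratio, and 10 lower but 3 by median ratio and 5 by quantiles. At 42 h without pyruvate the 3 higher became 9, 10 and 11 under median ratio, quantiles and length, and the 13 lower became 8 under length. At 55 h against early 4-cell the 14 lower became 23 under length and 9 when only the groups compared were fitted. At 55 h against very late 2-cell the 2 higher became 4 by quantiles, and the 7 lower became 4 with a pseudocount of 0.1, 4 with no filter, 12 under length and 3 when only the groups compared were fitted.

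In morulae without pyruvate the 4 higher became 1 by median ratio, 2 by quantiles, 1 under length, 1 when only the groups compared were fitted and 2 without standard morula libraries 1 and 2, and the 3 lower became 5, 7, 10 and, without those libraries, 6. In morulae without lactate the 2 higher became 1 with no filter, 1 by quantiles, 1 under length and 1 without those libraries, and the 1 lower became 0 with a pseudocount of 0.1, 2 by median ratio, 3 under length, 0 when only the groups compared were fitted and 7 without those libraries. With the inhibitor the 3 higher became 10, 5 and 11 under median ratio, quantiles and length, and the 24 lower became 7, 5 and 3. In blastocysts without pyruvate the 32 higher became 9, 13 and 4 under median ratio, quantiles and length, and the 0 lower became 10, 1 and 11. In blastocysts without lactate the 2 higher became 1 with no filter, and the 2 lower became 5, 5 and 4 under median ratio, quantiles and length. For the pyruvate effect in blastocysts minus that in morulae, 25 higher became 6, 11 and 6 and 0 lower became 7, 1 and 6. For lactate the 1 higher became 3 without those morula libraries, and the 1 lower became 0 with a pseudocount of 0.1, 0 with no filter, 3 by median ratio, 0 by quantiles, 0 when only the groups compared were fitted and 0 without those libraries. The cause of these moves was not tested.

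With the replicate block, fitted on the groups compared, the counts that moved by over 1.5 times were 5 higher at 52 h, 8 lower at 55 h against early 4-cell, 0 higher and 3 lower at 55 h against very late 2-cell, 2 higher in morulae without pyruvate, 1 higher and 0 lower in morulae without lactate, and 1 higher and 1 lower in blastocysts without lactate. Libraries with the same replicate number in their titles did not deviate together, with correlations of -0.254 to 0.189 and in no comparison all over 0.1. Some columns carry other numbers than the titles, and pairing by those was not checked. With 3 to 5 pairs per comparison, the check cannot show whether libraries shared animals or a day.

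Leaving out each library in turn gave 21 to 24 higher and 2 to 2 lower for late against early 2-cell, 17 to 21 and 6 to 7 for early 8-cell, 10 to 13 and 12 to 15 for blastocyst against early 8-cell, and 2 to 4 and 9 to 12 against early 32-cell. Without pyruvate it gave 3 to 4 and 13 to 14 at 42 h, 3 to 4 and 23 to 25 at 48 h, 3 to 4 and 25 to 28 at 52 h, 3 to 4 and 12 to 15 at 55 h against early 4-cell, and 2 to 2 and 4 to 11 against very late 2-cell. It gave 2 to 6 and 2 to 3 in morulae without pyruvate, where the higher count was 2 without replicate 4 of that medium, 1 to 2 and 0 to 3 without lactate, 2 to 3 and 24 to 28 with the inhibitor, 31 to 33 and 0 to 1 in blastocysts without pyruvate, 1 to 2 and 2 to 6 without lactate, 24 to 27 and 0 to 0 for the pyruvate effect, and 1 to 1 and 0 to 2 for the lactate effect. Of the members named, Aars in blastocysts without pyruvate was the only one to change direction, at -0.14 with the length trend removed. Of 100 calls of a named member in a comparison, 10 were lost under median ratio, 6 under quantiles, 8 under length beside that of Aars, 8 under the replicate block, 5 when only the groups compared were fitted, 4 with no filter and 4 with a pseudocount of 0.1.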
